A study of Mus musculus with 18 samples.

Results

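The pylorus of C57Bl/6J mouse embryos at E16.5 was set against the average of the tissues on either side of it, the stomach and the duodenum, to find the genes whose pyloric level left the range between these neighbours. The comparison used 9 of the series' 18 arrays, with 3 pools of stomach, 3 of pylorus and 3 of duodenum at E16.5, and the same tissues at E14.5 were used where ages are compared. The stomach samples were described as antral tissue next to the pylorus, cut as a segment adjoining the pyloric and duodenal segments. At E16.5 their means were nonetheless far above the pylorus for Krt13, a squamous keratin (12.76 against 7.29). The same held for Atp4a, a proton pump gene of the gastric body (12.50 against 7.10). Whether they held stomach tissue beyond the antrum was not tested. The labels give no treatment or engineered allele for any group. Tissue of 95 embryos at E16.5 and 174 at E14.5 was divided at random into 3 pools per tissue and age, so the spread between replicates is a spread between pools and not between embryos. The question behind the series is how the boundary between stomach and intestine forms at the pylorus in late fetal life.

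The pylorus is the ring of tissue through which the stomach empties into the duodenum. Its mesenchyme forms the sphincter muscle, and in vertebrate embryos the transcription factors Nkx2-5, Gata3 and Sox9 and the BMP antagonist Gremlin-1 are known from this mesenchyme. Its epithelium joins stomach mucosa, known for Sox2, gastrokines and trefoil factors, to intestinal mucosa, known for Cdx2 and the absorptive genes. A segment of pylorus can therefore hold both epithelia and a mesenchyme of its own. A gene can differ from the neighbours' average while it lies inside their range or because it lies outside both. The average is taken of log2 values, so an even mixture of both tissues would read above it for genes that differ between them. A contrast inside the range is therefore not by itself a pyloric trait, and the part of mixture was not tested. In these bulk samples, more cells of a type and more RNA per cell cannot be told apart.

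Values are log2 intensities of Affymetrix probe sets after RMA, and each of 18193 genes was read from its brightest probe set, by the mean of all arrays. Levels of different genes are not comparable on this scale, and only differences between tissues of the same gene are used. The array medians at E16.5 lay between 6.75 and 6.84, and precision is set by the small number of arrays. In each limma contrast a gene was called at a Benjamini-Hochberg adjusted p under 0.05 over all genes, and it counted as above or below both neighbours when the differences from stomach and from duodenum were both called in that direction. Its margin is the smaller of these differences. The labelled tissues matched most of their markers: Sox2 and Barx1 were high in stomach, Cdx2 and Cdh17 in duodenum, and Nkx2-5, Gata3 and Grem1 were higher in pylorus than in both, whereas Sox9 was not (9.54, 9.23 and 9.98 in the pyloric pools against 9.82, 9.56 and 9.67 in stomach). Over 913 genes at least 4-fold apart between stomach and duodenum, pyloric pools 1, 2 and 3 lay at 0.50, 0.53 and 0.42 of the way from stomach to duodenum.

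The pylorus differed from the average of its neighbours for 2601 genes, of which 1572 (8.64% of all genes) were higher and 1029 (5.66%) lower. For 439 of the higher and 266 of the lower genes the pyloric mean lay inside the range between stomach and duodenum. Beyond both neighbours with both differences called were 266 genes above (1.46%) and 163 genes below (0.896%). The margins above ran from 0.25 to 4.07 with a median of 0.49, and those below from -0.23 to -1.53 with a median of -0.40, so that 39 genes above but only 2 below passed 2-fold. The 3 pyloric arrays lay above all 6 neighbour arrays for 752 genes (4.13%) and below all 6 for 613 (3.37%), and among the genes called beyond both this held for 235 above and 141 below.

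The direction of the counts rests on the scale of the deposited values. Genes above made up 62.0% of the calls beyond both neighbours as deposited, 31.2% with each array centred on its median (162 above, 357 below) and 36.4% after quantile normalization (177 and 309). Of the contrast's calls, 60.4% were higher as deposited, 33.7% after centring, which moved the median of all genes by -0.09, and 46.6% after quantile normalization. Counts also moved in both directions when a pool was left out. The contrast called 876 genes without pyloric pool 1, 869 without pyloric pool 2 and 1721 without duodenal pool 3, but 3128 without duodenal pool 1 and 2679 without stomach pool 2, where 295 and 280 genes were above both. Genes above both numbered 134 without pyloric pool 1, 132 without pool 2, 149 without stomach pool 1 and 150 without stomach pool 3. Genes below numbered 81, 52, 86 and 86 without these same pools, and 104 without duodenal pool 3.

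**Figure D1:**
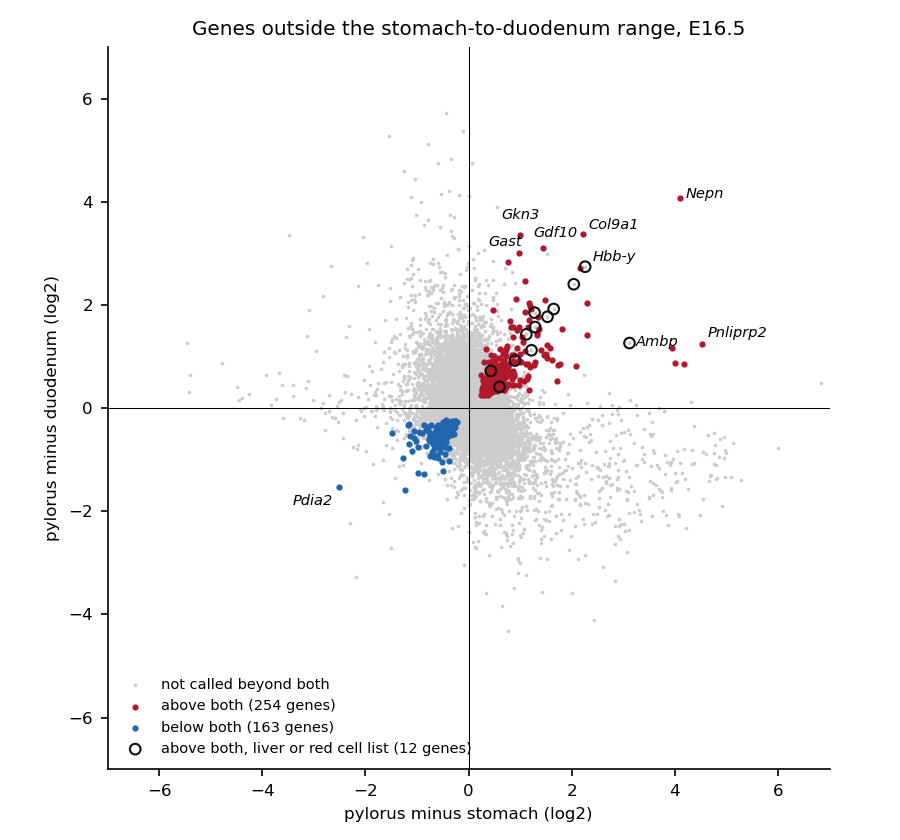
Each point is a gene, with pylorus minus stomach on the x axis and pylorus minus duodenum on the y axis, both log2 differences of group means at E16.5 (3 arrays each). Red points (254 genes) were above both neighbours, blue points (163) below both, and black rings mark 12 genes above both that are on the liver or red cell list. Nepn stands alone at the upper right, with differences of 4.09 and 4.07.

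Of 24 measured genes on the list of stomach and sphincter mesenchyme regulators, 3 were above both neighbours and 1 below both. Over all genes these shares were 1.46% and 0.896%. Nkx2-5, a homeodomain factor also known from heart and spleen, and Gata3, a zinc-finger factor, passed in both comparisons, and so did Meis2, a TALE homeodomain factor. By the contrast 8 of the 24 were higher and 2 lower, beside 8.64% higher and 5.66% lower over all genes, with a list median of 0.20 against 0.0. By contrast Six2 and Barx1, mesenchymal regulators of stomach, were higher than the neighbours' average but inside the range.

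Nkx2-5 (probe set 1449566_at) read 8.75, 8.49 and 8.40 in the pyloric pools, 7.21, 7.36 and 7.12 in stomach and 7.16, 7.01 and 7.08 in duodenum. All pyloric values lay above all neighbour values, and the spread within each tissue was small beside the gap. The difference was 1.32 ± 0.18 (SE) from stomach and 1.46 ± 0.18 from duodenum (limma adjusted p = 1.19e-04 and 2.52e-05). Gata3 (1448886_at) read 7.09, 6.97 and 6.37 in pylorus, 5.36, 5.05 and 5.97 in stomach and 5.18, 4.99 and 4.98 in duodenum. Pyloric pool 3 was the nearest to the stomach values and did not overlap them. Gata3 was 1.35 ± 0.35 above stomach and 1.76 ± 0.35 above duodenum (limma adjusted p = 0.0118 and 0.00110), and the call was lost without pyloric pool 1 (margin 1.21).

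Meis2 read 11.40, 11.27 and 11.52 in pylorus against 10.60, 10.89 and 10.75 in stomach and 10.60, 10.59 and 10.45 in duodenum, a margin of 0.65. Its call was lost without pyloric pools 1, 2 or 3 or stomach pools 1 or 3 (margin 0.58 to 0.71). It was also lost with the mean of all probe sets and after quantile normalization. Other Meis2 probe sets gave margins of 0.40 (1417129_a_at) and 0.08 (1440091_at) without a call, and 0.72 (1447861_x_at) with a call. Six2 read 8.98, 8.86 and 8.76 in pylorus, 9.03, 8.97 and 8.82 in stomach and 6.69, 6.21 and 6.63 in duodenum. Six2 thus stood at the stomach level, with a contrast of 1.14 (limma adjusted p = 0.00145). Barx1, which restrains the intestinal programme in stomach, read 10.76, 10.52 and 10.30 in pylorus, below stomach by -0.87 and above duodenum by 3.55. Gata4, chosen for mention after its value was seen, was the list's only gene below both neighbours, at 10.32, 10.35 and 10.62 against 11.06, 10.78 and 10.62 in stomach and 10.87, 10.99 and 10.81 in duodenum. Gata4 is a zinc-finger factor of foregut and midgut epithelium and mesenchyme, and its margin was -0.39, with pyloric pool 3 at the value of stomach pool 3.

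The promoter windows of some genes above both neighbours were read from RefSeq (GRCm38.p6). Each runs from 250 bases before to 50 bases after the annotated start, on the strand of the gene. Windows of Nepn, Nkx2-5, Gata3 and the red cell list gene Alas2 are printed, while those of Grem1, Gast, Hbb-y and Hemgn were searched but are not printed. Capitals mark matches to the GATA motif AGATAA or the TATA box TATAAA on either strand. The windows printed are Nepn at chr10:52391358-52391657 (plus strand), Nkx2-5 at chr17:26841516-26841815 (minus strand), Gata3 at chr2:9878551-9878850 (minus strand) and Alas2 at chrX:150547167-150547466 (plus strand).
Nepn: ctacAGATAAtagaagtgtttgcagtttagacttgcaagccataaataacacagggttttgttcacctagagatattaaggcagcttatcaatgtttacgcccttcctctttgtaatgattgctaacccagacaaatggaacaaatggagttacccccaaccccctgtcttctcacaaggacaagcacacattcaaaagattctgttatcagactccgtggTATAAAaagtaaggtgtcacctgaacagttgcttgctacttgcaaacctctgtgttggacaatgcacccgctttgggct
Nkx2-5: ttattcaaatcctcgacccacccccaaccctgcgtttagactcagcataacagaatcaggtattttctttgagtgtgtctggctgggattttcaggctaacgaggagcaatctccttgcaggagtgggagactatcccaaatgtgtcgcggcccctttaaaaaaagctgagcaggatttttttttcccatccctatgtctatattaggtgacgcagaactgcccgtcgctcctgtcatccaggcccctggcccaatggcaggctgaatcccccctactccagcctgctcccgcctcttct
Gata3: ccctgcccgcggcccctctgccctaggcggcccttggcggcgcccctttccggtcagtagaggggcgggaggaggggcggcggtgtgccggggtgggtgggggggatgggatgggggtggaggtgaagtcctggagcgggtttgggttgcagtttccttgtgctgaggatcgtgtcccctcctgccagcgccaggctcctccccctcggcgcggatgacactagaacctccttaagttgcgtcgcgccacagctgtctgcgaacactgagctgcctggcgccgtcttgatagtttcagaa
Alas2: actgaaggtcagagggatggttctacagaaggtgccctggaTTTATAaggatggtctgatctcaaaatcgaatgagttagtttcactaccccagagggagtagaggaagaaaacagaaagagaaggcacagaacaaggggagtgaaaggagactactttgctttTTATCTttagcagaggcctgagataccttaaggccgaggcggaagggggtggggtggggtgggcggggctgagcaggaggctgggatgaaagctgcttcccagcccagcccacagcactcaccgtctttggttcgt
The Nepn window held AGATAA starting 246 bases before the start and TATAAA 29 bases before it. Alas2, the erythroid enzyme of heme synthesis, held the reverse complements TTATCT 86 bases and TTTATA 209 bases before its start. The Nkx2-5 and Gata3 windows held neither motif, nor TNAAGTG (the NKX2-5 core) or CCACACCC (the KLF1 core), all searched on both strands. Of the windows not printed, those of Grem1 and Hbb-y held none of these motifs. Gast held TTTATA 28 bases before its start. Hemgn held TATAAA 80 bases before and AGATAA 28 bases after its start. Among genes above both neighbours that were on neither the liver nor the red cell list, 215 of 254 had a window, and 6.05% of these held AGATAA, 8.37% TNAAGTG, 4.65% CCACACCC and 10.2% TATAAA. The shares over the 14452 genes tested that had a window were 8.13%, 9.56%, 3.85% and 9.87%, and over all 27025 windows 11.4%, 11.5%, 3.57% and 14.2%. Of genes below both, 122 of 163 had a window, with 4.92%, 9.02%, 2.46% and 9.84% for the same motifs. A match describes letters in a window and is not a measured binding site.

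Nepn (nephrocan), a secreted leucine-rich repeat protein that inhibits TGF-beta signalling, had the largest margin above both neighbours, 16.8-fold over the nearer. Gdf10, a ligand of the TGF-beta superfamily, and Grem1, which binds and blocks BMP ligands, were 2.74-fold and 2.68-fold above theirs. Of 22 measured genes on the BMP list, Grem1 and Id2 were higher by the contrast and 2 were lower, with a list median of 0.14. Over all genes 8.64% were higher and 5.66% lower, so these counts do not set the list apart.

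Nepn (probe set 1419065_at) read 11.46, 11.66 and 11.21 in the pyloric pools, 7.68, 7.68 and 6.69 in stomach and 7.33, 7.43 and 7.37 in duodenum. Each pyloric value lay more than 3 log2 units above every neighbour value. The difference was 4.09 ± 0.35 from stomach and 4.07 ± 0.35 from duodenum (limma adjusted p = 1.35e-06 and 1.60e-06), and over 20 alternatives the margin stayed between 3.76 and 4.18. Gdf10 (1424007_at) read 9.94, 9.79 and 9.32 in pylorus, 8.52, 8.17 and 8.0 in stomach and 6.55, 6.55 and 6.62 in duodenum. The 3 tissues did not overlap, and the stomach lay between the others. Gdf10 was 1.45 ± 0.29 above stomach and 3.11 ± 0.29 above duodenum (limma adjusted p = 0.00238 and 2.75e-06).

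Grem1 (1425357_a_at) read 10.22, 9.69 and 9.31 in pylorus, 7.42, 7.54 and 7.38 in stomach and 9.02, 8.24 and 7.69 in duodenum. The duodenal pools spread widely, but their highest value stayed below the lowest pyloric value. Grem1 was 2.29 ± 0.32 above stomach and 1.42 ± 0.32 above duodenum (limma adjusted p = 1.53e-04 and 0.00299). Id2, a helix-loop-helix inhibitor and BMP target, read 12.30, 12.27 and 12.35 in pylorus with a margin of only 0.43, and its call held under 9 of 20 alternatives, being lost without pyloric pools 1, 2 or 3, stomach pools 1 or 2 or duodenal pool 2 (margin 0.30 to 0.45). Bmp4, a ligand of mesenchyme, read 10.23, 10.16 and 10.06 in pylorus against 9.40, 9.85 and 10.38 in stomach, and its receptor Bmpr1b had a contrast of 0.69 (limma adjusted p = 0.0876); neither was called.

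Of the 266 genes above both neighbours 236 were on no list. Upk1a, a tetraspanin of urothelial plaques that is also on the squamous list, Cldn9, a tight-junction claudin, and Pnliprp2, a pancreatic lipase-related lipase, were among the 12 leading genes, taken by margin without liver and red cell list genes and clone names. Gast, the hormone gastrin made by antral G cells, Gkn3, a gastrokine of gastric mucosa, Fcgbp, a mucus protein of goblet cells, and Neurog3, the factor that specifies endocrine progenitors, were above both as members of their lists. Of 23 measured antral and pyloric gland genes, 14 were higher and 1 lower by the contrast, with a median of 1.0. Over all genes 8.64% were higher and 5.66% lower. Of that list Gast and Gkn3 alone were above both neighbours, beside 1.46% of all genes.

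Upk1a (probe set 1426305_at) read 10.34, 10.63 and 10.19 in the pyloric pools, 8.08, 8.21 and 7.99 in stomach and 8.52, 8.36 and 8.18 in duodenum. The 6 neighbour arrays lay between 7.99 and 8.52, and the pylorus stood apart from both tissues. Its margin was 2.03, with limma adjusted p = 2.49e-08 against stomach and 2.71e-07 against duodenum. Pnliprp2 (1448186_at) read 10.70, 10.71 and 10.05 in pylorus, 5.77, 6.07 and 6.03 in stomach and 8.68, 9.53 and 9.49 in duodenum. The duodenum was nearer to the pylorus than the stomach was, with a difference of 1.25 ± 0.25 (limma adjusted p = 0.00120). Among 26 measured genes on the pancreas list Pnliprp2 was the only gene beyond both, beside 1.46% of all genes above and 0.896% below. The acinar gene Cpa1 read 7.44, 9.13 and 6.34 in the pyloric pools and 7.05, 8.42 and 9.73 in the duodenal pools, varying between pools of the same tissue.

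Gast (1422915_at) read 9.57, 9.57 and 9.58 in pylorus, 8.74, 8.80 and 8.24 in stomach and 6.39, 6.78 and 6.55 in duodenum. The pyloric pools agreed closely and stood 0.98 ± 0.28 above stomach and 3.0 ± 0.28 above duodenum (limma adjusted p = 0.0204 and 2.75e-06). The call beyond both neighbours was lost without pyloric pools 1 or 2 or stomach pool 3 (margin 0.80 to 0.98). Gkn3 read 12.41, 12.18 and 12.53 in pylorus, 11.04, 11.49 and 11.62 in stomach and 8.44, 8.89 and 9.72 in duodenum, a margin of 0.99 that lost its call without stomach pool 1 (margin 0.82) and under no other alternative run. Fcgbp read 13.64, 13.80 and 13.90 in pylorus against 11.70, 12.39 and 11.95 in stomach and 12.51, 13.35 and 12.94 in duodenum. For Fcgbp the duodenum was the nearer neighbour, at a margin of 0.85, and the call was lost without duodenal pool 1 (margin 0.64). Neurog3 read 9.45, 9.17 and 8.81 in pylorus against 8.85, 7.97 and 8.02 in duodenum, where duodenal pool 1 overlapped pyloric pool 3. Its call was lost without pyloric pools 1 or 2 or duodenal pools 2 or 3 (margin 0.71 to 0.85).

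Rgs13, a regulator of G-protein signalling known from tuft cells and lymphoid cells, read 5.44, 6.81 and 5.46 in pylorus, 4.05, 4.11 and 4.12 in stomach and 4.11, 4.22 and 4.76 in duodenum. Pyloric pool 2 was the highest, and the margin of 1.54 fell to 1.09 at its lowest over the 19 alternatives run. The neighbour arrays lay near the lowest value of any probe set, 3.55. Samd5, a SAM-domain protein, read 9.25, 8.66 and 9.21 in pylorus, 7.04, 7.90 and 7.71 in stomach and 7.65, 6.79 and 6.37 in duodenum, with limma adjusted p = 0.00667 and 2.77e-04. The other, dimmer probe set of Samd5 gave a margin of 0.12 without a call. Cldn9 read 6.98, 6.87 and 6.54 in pylorus, with neighbour arrays between 4.91 and 5.77, but its other probe set gave a margin of 0.06, and the call was lost without pyloric pools 1 or 2 or stomach pools 2 or 3 (margin 1.20 to 1.33). Bhmt, an enzyme of methionine synthesis that is abundant in liver though not on the liver list, read 7.30, 6.90 and 5.68 in pylorus. Its pool 1 was the highest and pool 3 the lowest, and the call was lost without pyloric pools 1 or 2 or stomach pool 3 (margin 1.02 to 1.22).

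Col9a1, a chain of the cartilage collagen type IX, shows how a call can rest on the probe set. Probe set 1428571_at read 9.05, 9.06 and 8.13 in the pyloric pools, 6.67, 6.52 and 6.42 in stomach and 5.44, 5.68 and 4.98 in duodenum, a margin of 2.21. Probe set 1421381_a_at, whose mean at E16.5 was higher (7.07 against 6.88), gave a margin of -0.16 and no call. The cartilage marker Col2a1 was not called, at 6.01, 5.83 and 6.24 in pylorus and 6.24, 6.34 and 6.54 in stomach. By the contrast 2 of 23 measured tendon and cartilage genes were higher, beside 8.64% of all genes. Over all genes above both, 162 had another probe set, and for 33 of them another probe set was called above both as well, while for 124 another lay on the same side.

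Single members of further lists were above both neighbours by smaller margins. Crabp1, a carrier of retinoic acid, read 8.87, 8.88 and 7.89 in pylorus, 7.56, 7.56 and 7.22 in stomach and 5.83, 5.93 and 6.47 in duodenum, and lost its call without pyloric pools 1 or 2 or stomach pool 3 (margin 0.93 to 0.99). Actc1, cardiac alpha-actin, read 11.22, 10.83 and 10.25 in pylorus against 9.58, 9.63 and 10 in stomach and 9.32, 9.24 and 9.64 in duodenum. By the contrast 2 of the 23 measured striated muscle genes were lower, beside 5.66% of all genes. Gucy1b1, a subunit of the nitric oxide receptor of smooth muscle, read 10.69, 10.51 and 10.47 in pylorus with limma adjusted p = 0.00987 and 8.78e-06, and lost its call without pyloric pool 1 (margin 0.32). Smooth muscle contraction genes as a list stood at a median of -0.01, with Acta2 at 14.23, 13.96 and 13.89 in pylorus and 14, 14.07 and 14.40 in stomach. Of the list's 22 measured genes 0 were beyond both neighbours, beside 1.46% of all genes above and 0.896% below. Lgr4, an R-spondin receptor, and Cldn3, an epithelial claudin, had margins of 0.48 and 0.46, and neither stayed called when arrays were centred on the median. Lgr4 also lost its call without pyloric pools 2 or 3 or stomach pools 1 or 3 (margin 0.35 to 0.50), and Cldn3 without pyloric pools 1, 2 or 3 or duodenal pools 2 or 3 (margin 0.40 to 0.49). Laptm5, a lysosomal protein of leukocytes, had a margin of 0.94, but the mean of its probe sets gave -0.23, and Ptprc, the pan-leukocyte marker, had a contrast of 0.27 that was not called.

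**Figure D2:**
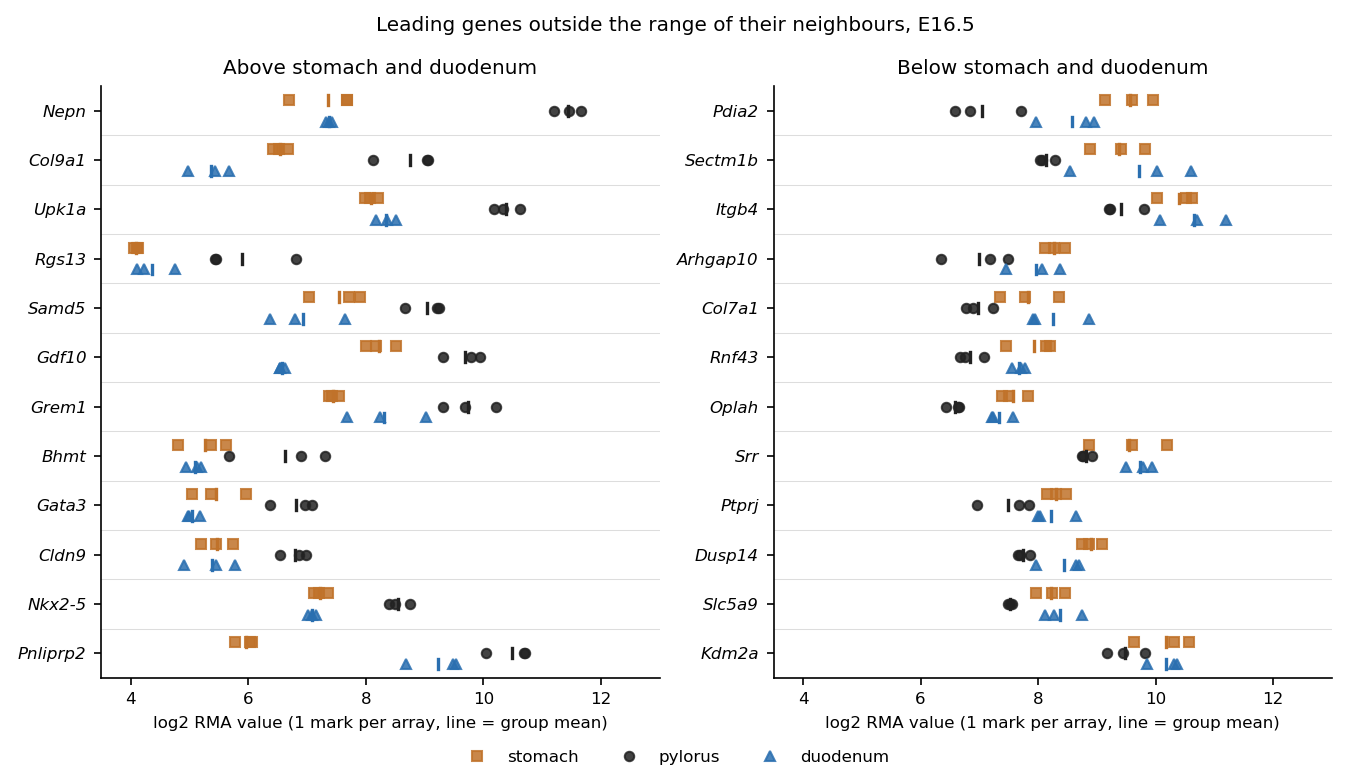
Log2 RMA values of the 12 genes with the largest margin above (left) and below (right) both neighbours, leaving out liver and red cell list genes and symbols that are only clone names, with 1 mark per array and a short line at each group mean. The pyloric marks of Nepn, Upk1a, Gdf10 and Nkx2-5 stand clear of all stomach and duodenal marks, while those of Srr, Arhgap10 and Kdm2a overlap a neighbour.

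Liver and red cell genes were taken apart because they are known from hepatocytes and blood. Being on a list does not show which cells made a transcript, and the cell source of the members was not tested. Red cell genes gave 9 of 45 measured members above both neighbours (Hbb-y, Slc4a1, Hemgn, Alas2, Hbb-b2, Hba-x, Slc25a37, Tspo2 and Aqp1) and the liver list 3 of 55 (Ambp, Kng1 and Plg), beside 1.46% of all genes. Both lists had a contrast median of 0.39, with 11 red cell and 14 liver genes higher and 1 and 3 lower. Over all genes 8.64% were higher and 5.66% lower by the contrast. Without the liver and red cell list genes, 254 genes remained above both, and all 163 genes below both were outside these lists. Of the 39 genes at least 2-fold above, 9 were on them.

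The pyloric pools differed among themselves for these genes. Hbb-y, an embryonic beta-globin, read 11, 10.39 and 8.67 in pyloric pools 1, 2 and 3, 8.64, 8.58 and 6.05 in stomach and 8.65, 6.13 and 7.05 in duodenum. Its probe set carries the suffix of sets that can also bind related transcripts, so globins may share its signal. Alas2 read 11.20, 10.73 and 10.05 in pylorus, 9.72, 9.12 and 8.56 in stomach and 9.20, 8.47 and 9.01 in duodenum. Slc4a1, the red cell anion exchanger, read 10.26, 9.59 and 8.07 in pylorus, 8.04, 7.50 and 6.26 in stomach and 7.43, 6.41 and 6.88 in duodenum. In each of these genes pyloric pool 1 was the highest, pool 3 the lowest pyloric pool, and stomach pool 3 the lowest stomach pool.

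That order of the pyloric pools held for 8 of the 9 red cell genes and all 3 liver genes above both, and for 59 of the 254 others. The span over the pyloric pools had a median of 1.16 in the red cell genes (0.31 to 2.33), 1.13 in the liver genes (0.23 to 1.93) and 0.27 in the others (0.01 to 1.62). Of the other genes, Bhmt and Car3, named after their values were seen, had pool 1 at least 2-fold over pool 3. Relative to the mean of the 6 neighbour arrays, the 9 red cell genes had medians of 2.19, 1.67 and 0.79 in pyloric pools 1, 2 and 3, and the 254 other genes 0.66, 0.62 and 0.55. These sets were chosen for lying above both neighbours, and the part of their unlike margins in spans and medians was not tested. Over all measured members the medians were 0.53, 0.42 and 0.08 for the red cell list and 0.57, 0.30 and 0.03 for the liver list. Hbb-y lost its call without pyloric pools 1 or 2 or stomach pool 3 (margin 1.41 to 2.08), and Slc4a1 and Hemgn lost theirs without the same pools (margins 1.54 to 1.90 and 1.17 to 1.53). Slc4a1 probe set 1416464_at, about as bright at E16.5 (7.84 against 7.83), gave a margin of 1.55 without a call. Hbb-b2 lost its call without pyloric pools 1 or 2 (margin 0.95 to 1.23), whereas Alas2 kept its call, with a margin between 1.24 and 1.83.

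Among liver genes, Ambp, which encodes alpha-1-microglobulin and bikunin, kept that order of pools but with little difference between them. Ambp read 11.78, 11.76 and 11.55 in pylorus, 9.17, 8.88 and 7.67 in stomach and 10.21, 10.76 and 10.33 in duodenum, 3.12 ± 0.32 above stomach and 1.26 ± 0.32 above duodenum (limma adjusted p = 8.62e-06 and 0.00623). The pyloric pools spanned 0.23, and the duodenum stood above the stomach, unlike albumin. Alb read 12.80, 12 and 11.15 in pylorus, 11.61, 11.18 and 8.59 in stomach and 9.22, 7.87 and 9.92 in duodenum, and stomach pool 1 overlapped pyloric pool 3. Afp, the other major fetal serum protein, had a contrast of 1.12 that was not called. Alb was higher than the neighbours' average by 2.25 ± 0.61 (limma adjusted p = 0.0258), but its difference from stomach was not called (limma adjusted p = 0.143). Kng1, the kininogen gene, read 7.42, 6.63 and 5.49 in pylorus and lost its call without pyloric pools 1 or 2, stomach pools 2 or 3 or duodenal pools 2 or 3 (margin 0.84 to 1.30). The fibrinogen gene Fgg and the antithrombin gene Serpinc1 had margins of 1.36 and 0.95 without a call beyond both. Summed as a mean over the list, liver genes read 7.68, 7.41 and 7.08 in the pyloric pools, 6.96, 6.93 and 6.37 in stomach and 7.04, 7.17 and 7.40 in duodenum. Red cell genes read 8.41, 8.21 and 7.88 in pylorus, 7.89, 7.77 and 7.49 in stomach and 7.70, 7.52 and 7.63 in duodenum, and the part of either list in the other results was not tested.

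**Figure D3:**
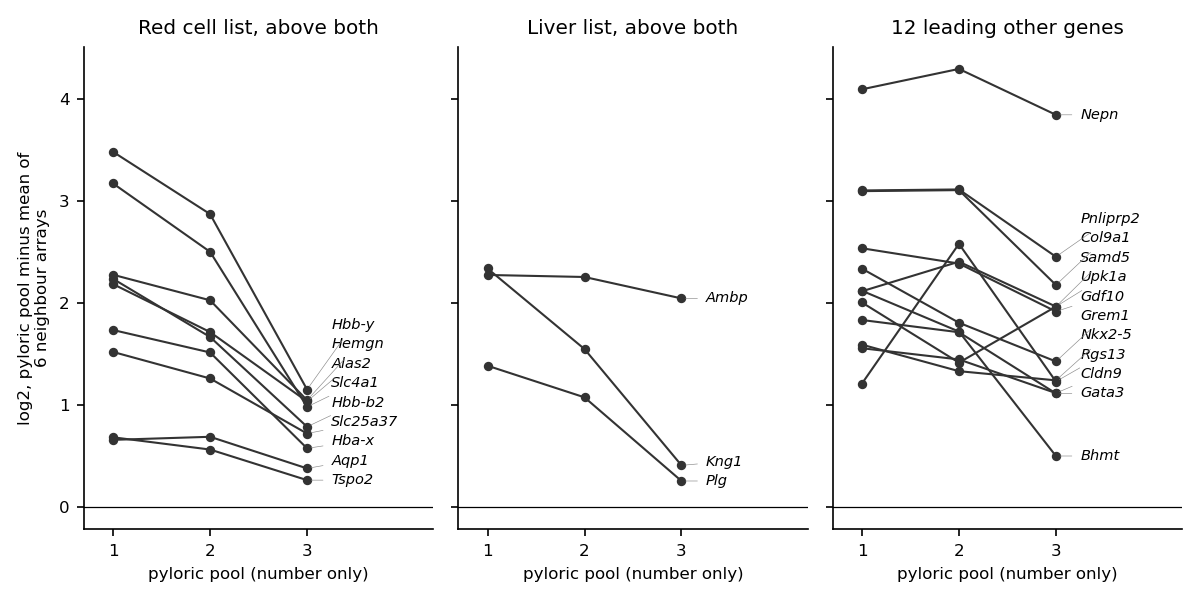
Pyloric value minus the mean of the 6 neighbour arrays (log2) in pools 1, 2 and 3, for the red cell genes (left) and liver genes (middle) above both neighbours and for the 12 genes with the largest margin outside these lists and clone names (right); lines join the values of a gene, and the pool numbers carry no order. In 8 of 9 red cell genes pool 1 is highest and pool 3 lowest, while Ambp and Nkx2-5 have pools close together and Bhmt does not.

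The values as deposited gave 163 genes below both neighbours against 266 above, an order that turned to 357 against 162 with arrays centred on the median and 309 against 177 after quantile normalization. Pdia2, a protein disulfide isomerase of secretory cells, and Sectm1b, a secreted and transmembrane protein of epithelia, were the only genes at least 2-fold below. The set also held adhesion genes of the epithelial base, Itgb4, the hemidesmosomal integrin, and Col7a1, the anchoring-fibril collagen, and Rnf43, a ubiquitin ligase that removes Wnt receptors. Of the 735 list genes, 5 were below both, beside 0.896% of all genes: Gata4, Dkk1, Fbln1, Cckbr and Trpm6.

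Pdia2 (probe set 1428952_at) read 6.85, 7.71 and 6.58 in the pyloric pools, 9.14, 9.59 and 9.95 in stomach and 7.96, 8.95 and 8.82 in duodenum. The highest pyloric value stayed below the lowest duodenal value. Pdia2 was below stomach by -2.51 ± 0.33 and below duodenum by -1.53 ± 0.33 (limma adjusted p = 8.15e-05 and 0.00203). Sectm1b read 8.04, 8.07 and 8.28 in pylorus, 8.88, 9.82 and 9.41 in stomach and 8.54, 10.03 and 10.60 in duodenum, with a margin of -1.24 and a call that was lost without pyloric pools 1 or 2 or stomach pools 2 or 3 (margin -1.01 to -1.22). The pyloric pools agreed while the duodenal pools spread over 2 log2 units. Itgb4 read 9.22, 9.20 and 9.81 in pylorus, 10.52, 10.03 and 10.62 in stomach and 10.07, 10.70 and 11.20 in duodenum, with limma adjusted p = 0.0107 and 0.00117. Its call was lost without pyloric pool 2 or stomach pool 3 (margin -0.86 to -0.88).

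Col7a1 read 6.89, 6.78 and 7.24 in pylorus, 7.78, 7.36 and 8.35 in stomach and 7.92, 7.95 and 8.87 in duodenum. Rnf43 read 6.75, 6.67 and 7.08 in pylorus, 8.21, 7.45 and 8.14 in stomach and 7.77, 7.55 and 7.71 in duodenum. Both were lower in each pyloric pool than in every neighbour array, with margins of -0.86 and -0.84. The call of Col7a1 was lost without pyloric pools 1 or 2 or stomach pools 1 or 3 (margin -0.60 to -0.88), and that of Rnf43 without pyloric pools 1 or 2, stomach pools 1 or 3 or duodenal pools 1 or 3 (margin -0.76 to -0.84). Oplah, the 5-oxoprolinase of the glutathione cycle, read 6.44, 6.64 and 6.66 in pylorus, 7.82, 7.38 and 7.51 in stomach and 7.23, 7.21 and 7.57 in duodenum. Dusp14, a dual-specificity phosphatase, read 7.69, 7.66 and 7.86 in pylorus, 8.86, 9.09 and 8.74 in stomach and 7.97, 8.65 and 8.70 in duodenum. Pdia2, Oplah, Dusp14 and Fbln1 stayed called under all 20 alternatives run.

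Fbln1, the matrix glycoprotein fibulin-1, read 10.92, 10.74 and 10.69 in pylorus, 12.07, 11.86 and 11.83 in stomach and 11.02, 11.41 and 11.57 in duodenum, and another of its probe sets was called below as well. Dkk1, a Wnt antagonist, read 5.69, 5.69 and 5.88 in pylorus with a margin of -0.35, and lost its call without pyloric pools 1 or 2, stomach pool 1 or duodenal pool 1 (margin -0.22 to -0.35). Cckbr, the gastrin receptor, read 6.96, 7.13 and 7.14 in pylorus, 8.39, 8.20 and 8.18 in stomach and 7.27, 7.26 and 7.65 in duodenum, so that it was below both while its ligand Gast was above both. Cckbr lost its call without pyloric pools 1, 2 or 3 or duodenal pool 3 (margin -0.19 to -0.35). Trpm6, a magnesium channel, had a margin of -0.33 and kept its call under 5 of 19 alternatives, losing it without pyloric pools 1, 2 or 3, stomach pools 1, 2 or 3 or duodenal pools 1 or 2 (margin -0.23 to -0.39). Arhgap10, a GTPase-activating protein, Ptprj, a receptor phosphatase, Slc5a9, a sodium-coupled sugar transporter, Srr, the serine racemase, and Kdm2a, a histone demethylase, had margins of -0.97, -0.73, -0.70, -0.74 and -0.69. Arhgap10 lost its call without pyloric pools 1 or 2, stomach pools 1, 2 or 3 or duodenal pools 2 or 3 (margin -0.64 to -1.06), Ptprj without pyloric pool 1, stomach pool 1 or duodenal pool 3 (margin -0.46 to -0.73) and Slc5a9 without stomach pool 3 (margin -0.58). Srr lost its call without pyloric pools 1, 2 or 3, stomach pools 1 or 3 or duodenal pool 2 (margin -0.42 to -0.79), and Kdm2a without pyloric pools 1 or 2, stomach pools 1 or 3 or duodenal pools 1 or 3 (margin -0.49 to -0.68). At least 1 other probe set of each of Ptprj, Slc5a9, Srr, Kdm2a and Trpm6 lay above both neighbours, without a call. Further probe sets of Ptprj (-0.14), Kdm2a (-0.04 and -0.09) and Srr (-0.04 and -0.05) lay below both, also without a call. Over all genes below both, 75 had another probe set, for 5 of which another was called below both and for 49 of which another lay on the same side.

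Immediate-early and heat-shock genes moved with this side of the comparison. Over 21 such genes the list mean read 8.99, 8.86 and 8.77 in the pyloric pools, 9.37, 9.04 and 11.38 in stomach and 11.14, 9.16 and 9.34 in duodenum. Stomach pool 3 and duodenal pool 1 were thus about 2 log2 units above the other arrays. The list's contrast median was -0.90, with 0 genes higher and 3 lower (Jun, Egr1 and Hspb1), beside 5.66% lower over all genes. None was called below both, beside 0.896% of all genes. Egr1, an early response factor, read 9.29, 8.97 and 9.07 in pylorus, 10.99, 9.04 and 13.83 in stomach and 14.15, 11.33 and 11.66 in duodenum. Without both of those arrays, an alternative added after the data were seen, 191 genes were above both and 114 below both, and of the genes called with all arrays 146 and 81 were still called.

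Genes inside the range of their neighbours were called where the pylorus lay nearer to 1 of them. Of the 439 higher genes inside the range, 301 were higher in stomach than in duodenum and 138 higher in duodenum. Of the 266 lower genes inside the range, 204 were higher in duodenum, with the pylorus nearer to stomach, and 62 were higher in stomach, with the pylorus nearer to duodenum. Mal, a membrane protein of apical sorting, Sptssb, a subunit of serine palmitoyltransferase, and Anxa10, an annexin of gastric epithelium, stood at the stomach level. Ugt2b5, a glucuronosyltransferase, and the coiled-coil gene ccdc198 stood near the duodenal level. The lower genes named here, among them squamous and acid-secretion genes, were those with the lowest contrasts and belong to the 62.

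Sptssb read 13.21, 13.34 and 13.28 in pylorus, 13.03, 13.81 and 13.30 in stomach and 6.97, 7.43 and 9.29 in duodenum, a contrast of 2.64 ± 0.42 (limma adjusted p = 0.00158). Ugt2b5 read 11.21, 11.42 and 10.98 in pylorus, 4.48, 6.14 and 4.99 in stomach and 11.47, 12.29 and 12.17 in duodenum. In both of these genes, chosen for their high contrasts, the pylorus lay near the neighbour with the higher value. Cdx2, the intestinal master regulator, read 10.86, 10.79 and 10.54 in pylorus, 6.69, 7.63 and 6.54 in stomach and 10.82, 10.75 and 10.79 in duodenum, and Sox2, its gastric counterpart, read 9.91, 9.89 and 10.76, 11.07, 11.34 and 11.26 and 5.74, 5.48 and 6.01 in the same order of tissues. Cdx2 had the duodenal value in every pyloric pool, while Sox2 lay between, -1.04 from stomach and 4.44 from duodenum. Pdx1, a factor of antrum, duodenum and pancreas, read 10.23, 10.06 and 10.35 in pylorus and 9.82, 10.16 and 10.36 in duodenum, with a contrast of 0.60.

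At the low end, Atp4a, the catalytic subunit of the gastric proton pump, read 7.03, 7.14 and 7.12 in pylorus, 12.07, 12.40 and 13.02 in stomach and 6.44, 6.38 and 6.52 in duodenum. Krt13, a keratin of squamous epithelium, read 7.67, 7.51 and 6.70 in pylorus, 12.32, 12.47 and 13.48 in stomach and 5.99, 5.83 and 6.24 in duodenum. Both were far below stomach and slightly above duodenum. Krtdap and Rptn, genes of keratinizing epithelium, and Cyp2f2, a cytochrome P450, read at or near the duodenal values in the pyloric pools, with contrasts of -2.56, -2.10 and -2.14. Over genes at least 4-fold apart, the mean pylorus lay at 0.55 of the way to duodenum for the 581 genes higher in duodenum and at 0.32 for the 332 higher in stomach, so that it was nearer to the neighbour with the higher level.

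The counts of the lists are read beside 8.64% of all genes higher and 5.66% lower by the contrast. Intestinal epithelial transcription factors had 9 of 22 measured genes higher and 1 lower by the contrast (median 0.71), enteroendocrine genes 10 and 1 of 21 (median 0.40), and goblet and Paneth cell genes 7 and 1 of 18 (median 0.64). Absorptive genes gave 2 of 22 for lipid absorption, 5 of 25 for the brush border and 6 of 26 for transporters higher, and 0, 3 (Espn, Ace and Naaladl1) and 1 (Trpm6) lower, with medians between 0.52 and 0.67. None of these absorptive genes was above both, beside 1.46% of all genes. In gastric body genes 8 of 17 were lower and 0 higher (median -0.36), and in squamous genes 6 were lower and 3 higher of 17 (median -0.60). Apob, the apolipoprotein of chylomicrons, read 11.50, 11.50 and 10.37 in pylorus and 11.40, 11.92 and 12.66 in duodenum, and Alpi, intestinal alkaline phosphatase, had a contrast of 2.07 with limma adjusted p = 0.0644, not called.

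Mesenchymal, neural and proliferation lists stayed closer to 0. Cell division genes were higher for 8 of 24 and lower for 0, with a median of 0.33, and Kif20a, a mitotic kinesin, was 1.26 above duodenum but 0.19 from stomach. Enteric neuron and glia genes were higher for 5 of 23 (median 0.04), led by Stmn2, a neuronal tubulin regulator, with 11.15, 11.08 and 10.82 in pylorus against 10.51, 10.68 and 10.43 in stomach and 8.83, 9.67 and 9.81 in duodenum. Hedgehog genes were higher for 2 of 12 (median 0.24), among them the ligand Shh, which read 11.57, 11.95 and 12.14 in pylorus, 12.37, 12.45 and 12.31 in stomach and 10.13, 9.24 and 9.55 in duodenum, whereas Ihh was not called (-0.14). Wnt genes gave 3 higher and 1 lower of 26, FGF and retinoic acid genes 4 and 1 of 22, Notch genes 1 and 0 of 19, and Hox genes 2 and 1 of 24, with medians between -0.13 and 0.11 and beside 8.64% higher and 5.66% lower over all genes. Of interstitial cell of Cajal genes 2 of 8 were higher, including the chloride channel Ano1 at 10.65, 10.62 and 11.14 in pylorus and 11.36, 11.61 and 11.49 in stomach. Myocd, a cofactor of smooth muscle genes, was 1.33 above duodenum and 0.33 above stomach, the latter not called.

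The remaining lists are given by their counts, beside the same shares over all genes. General epithelial genes were higher for 5 of 15 (median 0.21), with Cdh1 not called (0.27). Extracellular matrix genes were higher for 4 and lower for 1 of 23 (median 0.03), mesothelium and spleen genes higher for 5 of 14 (median 0.49) and leukocyte genes higher for 4 of 26 (median 0.24). Genes of motility peptides and receptors were higher for 2 and lower for 4 of 22 (median -0.13), and pancreas genes higher for 4 and lower for 1 of 26 (median 0.10). Endothelial genes were higher for 0 and lower for 1 of 21 (median -0.26), with Cldn5, an endothelial claudin, at 7.55, 7.45 and 7.08 in pylorus and 7.98, 7.71 and 9.34 in stomach, and cholesterol synthesis genes lower for 1 of 18 (median 0.07).

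**Figure D4:**
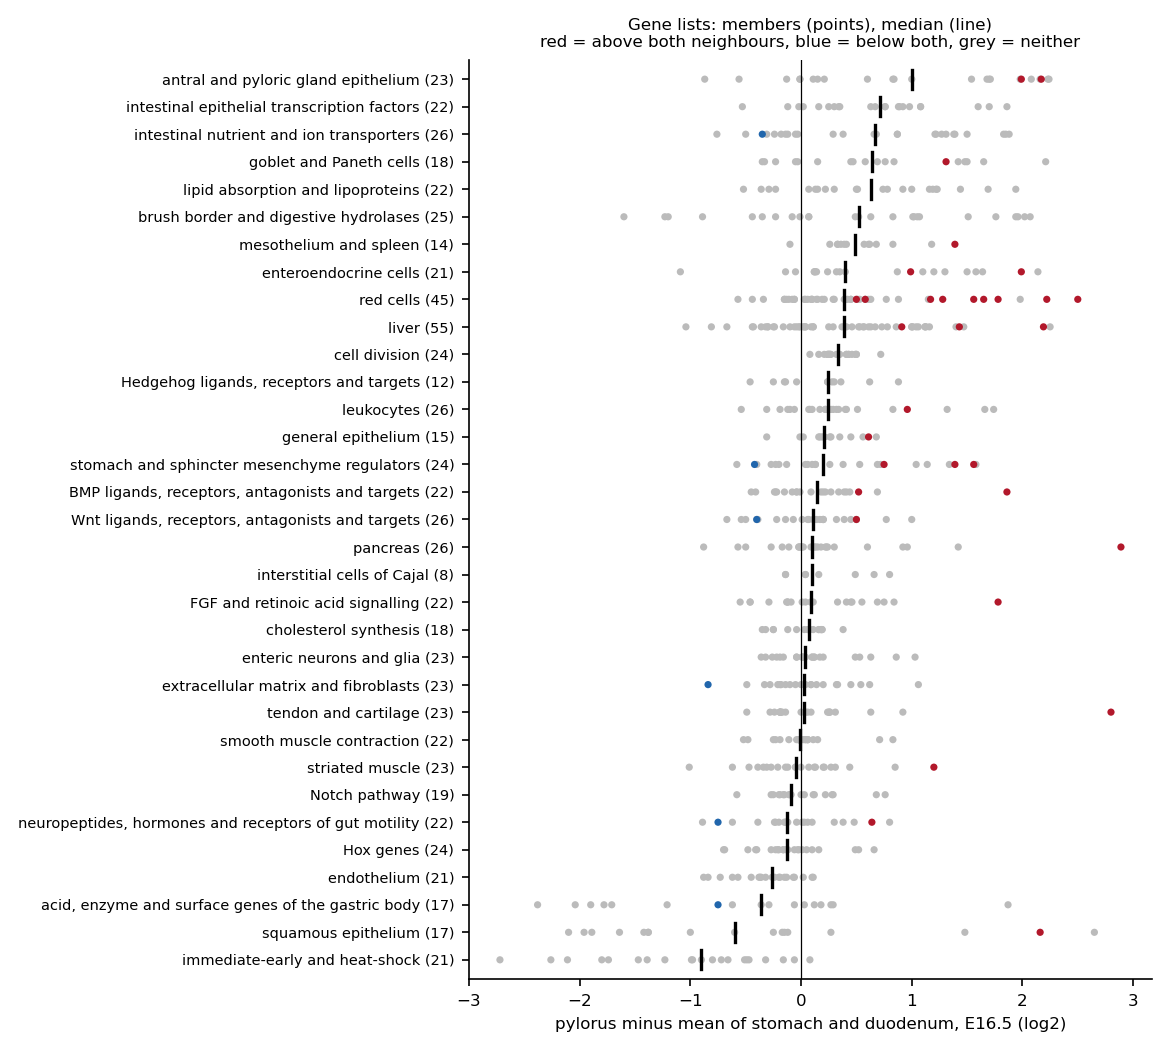
Pylorus minus the mean of stomach and duodenum at E16.5 (log2) for the measured members of the 33 lists, 1 point per gene, with a black line at each list's median and the number measured in parentheses; red and blue points were above and below both neighbours. Antral and pyloric gland genes have the highest median, 1.0, and immediate-early and heat-shock genes the lowest, -0.90.

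The same contrast at E14.5 called fewer genes, 65 higher (0.357%) and 84 lower (0.462%). Duodenal arrays 1 and 2 of that age differed less than any other replicate pair and were counted as 1 sample. Pyloric pool 1 of E14.5 stood apart from pools 2 and 3, with SDs of the log2 difference of 0.497 and 0.441. Pools 2 and 3 differed by 0.178. At E16.5, duodenal pool 1 stood apart in a similar way (0.477 and 0.42, against 0.25). The part of E14.5 pyloric pool 1 in the fewer calls and in the changes with age was not tested. Of the 266 genes above both neighbours at E16.5, 17 were called at E14.5, and their median contrast was 0.07 at E14.5 against 0.62 at E16.5, the latter being the measure that chose them. At E14.5, 167 of them (62.8%) were positive, against 37.7% of all genes. Of the 163 genes below, 117 (71.8%) were negative at E14.5, against 62.3% of all genes, and 1 was called. Only Gata3 and Nkx2-5 were above both neighbours at both ages, of 3 genes above both at E14.5, and only Disp2, named after its value was seen, was below both at both ages, of 17.

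The change of the contrast with age was called for 126 genes upward (0.693%) and 46 downward (0.253%), among them 35 of the genes above both and 3 of those below. These 35 and 3 genes were chosen by their E16.5 differences, which are part of the tested change. The total of 172 was 77 without E16.5 pyloric pool 1, 58 without pool 2, 113 without pool 3 and 758 without E16.5 duodenal pool 1. Nkx2-5 and Gata3 had larger contrasts at E14.5, 2.59 and 3.03, than at E16.5, 1.39 and 1.56. The change was called for Nkx2-5 (-1.20 ± 0.22, limma adjusted p = 0.0232) and not for Gata3 (-1.47 ± 0.43, limma adjusted p = 0.0967). Grem1 had 2.01 at E14.5 and 1.86 at E16.5, a change of -0.15 ± 0.40 that was not called.

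Nepn changed most among the named genes above both, by 2.71 ± 0.44 (limma adjusted p = 0.0137). Its group means at E14.5 were 12.02 ± 0.16 in stomach, 12.15 ± 0.95 in pylorus and 9.55 ± 0.22 in duodenum (SD, 3, 3 and 2 samples). At E16.5 they were 7.35 ± 0.57, 11.44 ± 0.23 and 7.38 ± 0.05 (SD, n = 3), so that stomach and duodenum read lower at the later age while the pylorus stayed within 1 log2 unit. Gdf10 and Ambp showed the same form, with lower stomach and duodenal means at E16.5 and pyloric means of 10.40 ± 0.81 and 11.79 ± 0.60 at E14.5 and 9.68 ± 0.32 and 11.70 ± 0.13 at E16.5. Pnliprp2, Gkn3, Rgs13 and Upk1a took another form, in which the pyloric mean was higher at E16.5 than at E14.5, as for Pnliprp2 with 7.32 ± 0.37 and 10.49 ± 0.38. Differences between ages within a tissue were not tested here. Among red cell genes Hbb-y had a contrast of 0.08 at E14.5 and Alas2 of 1.27, and the change with age was called for neither. Hbb-y then had means of 14.49 in stomach, 14.60 in pylorus and 14.54 in duodenum. These lie near the highest value of any probe set, 15.22, so a difference at that age could be hidden by the upper end of the scale.

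**Figure D5:**
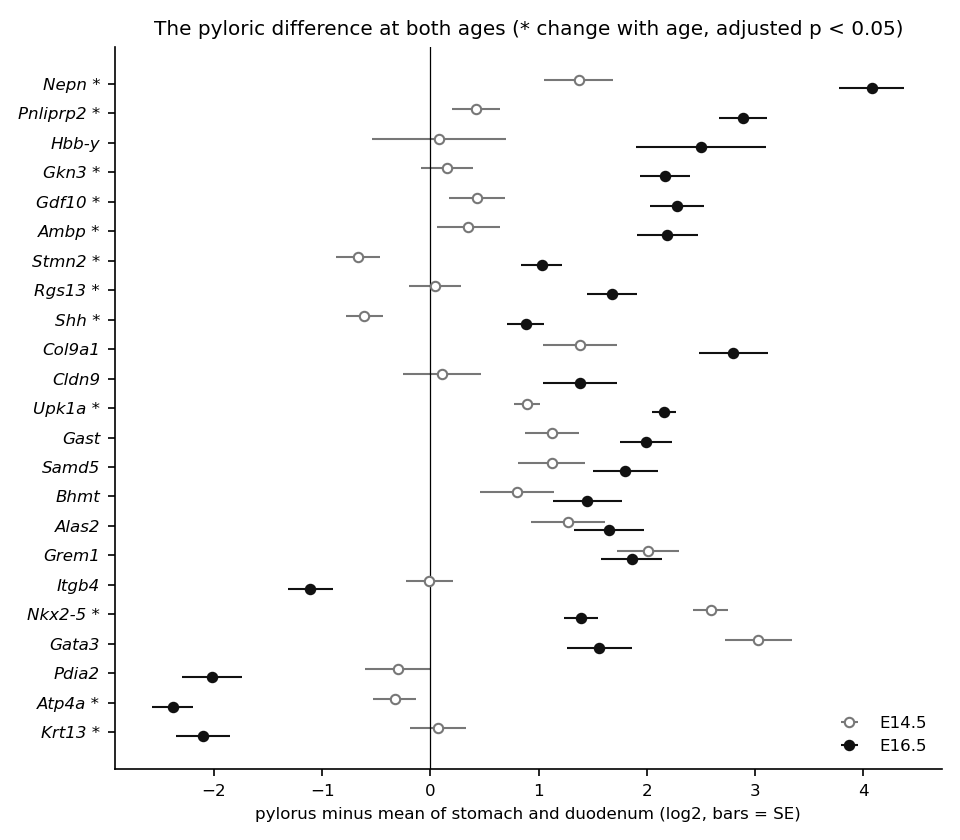
Pylorus minus the mean of stomach and duodenum (log2, bars are SE) at E14.5 (open) and E16.5 (filled) for 23 named genes, ordered by the change between ages; an asterisk marks a change with adjusted p under 0.05. Nepn moves from 1.37 to 4.08 and Nkx2-5 from 2.59 to 1.39.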

How the data were processed

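Total RNA of 18 pools was hybridized to Affymetrix arrays as biotinylated cRNA, per the labels' protocols. The authors deposited log2 intensities, and the submitters' processing notes name GCOS and RMA as tools. Their versions were not given in the sources used here, nor whether all arrays shared an RMA run. Slide and scan date were not used. The table held 45101 probe sets with values from 3.55 to 15.22. Probe sets with exactly 1 symbol in the platform annotation (34945) were used; 932 had several, 9160 none and 64 were controls. The brightest probe set, by its mean of all arrays, stood for each of 18193 genes, 9010 of which had several. Gene identifiers of 34741 probe sets were found in RefSeq (GRCm38.p6), and 0 symbols were updated.

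Duodenal replicates 1 and 2 of E14.5 differed with an SD of 0.079 over probe sets above log2 8, against 0.177 to 0.497 in the other pairs, and were averaged as 1 sample. Whether they are separate pools is not known. limma 3.58.1 in R 4.3.3 fitted a mean for each of 6 groups to 17 samples (11 residual and 3.95 prior degrees of freedom), so pools of both ages share 1 spread per gene. The contrasts were pylorus minus the average of stomach and duodenum, pylorus minus each of them, and the change of the first with age; p-values were Benjamini-Hochberg adjusted over all genes, without an adjustment over lists. The fit was tested on simulated data. Python 3.11.15 with pandas 2.3.3, numpy 2.4.6 and matplotlib 3.10.9 made tables and figures.

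Replicate numbers were not taken as pairs: tissue was pooled at random, and deviations of same-numbered arrays at E16.5 correlated between -0.14 and 0.34. The members, the 33 gene lists and the tests were chosen with earlier results of these data known. Named genes are the 12 above and the 12 below both neighbours with the largest margin outside the liver and red cell lists and clone names; 5 members of each of those lists; up to 3 members beyond both of each other list, or the member with the largest contrast; the 5 highest and 5 lowest called contrasts inside the range; and 18 markers. Genes named outside this rule are said to be so or stand in complete counts and as markers. Alternatives were other scalings, array weights, probe set choices, filters, thresholds, fits of fewer arrays, and leaving out each of the 9 E16.5 arrays in turn. No single E14.5 array was left out.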

Additional observations from a re-analysis of the deposited data

Results flagged for a closer look

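The contrast of pylorus with the average of its neighbours differed between E14.5 and E16.5 for 14 of the 83 named genes, by a limma test of the change itself (adjusted p under 0.05 over all genes). Over all genes the change was called for 0.693% upward and 0.253% downward. Most named genes were chosen by their E16.5 differences, which are part of the tested change, so their count cannot be weighed against that share. Genes beyond both neighbours at E16.5 made up 8 of the 14. Nepn changed by 2.71, Pnliprp2 by 2.48, Gkn3 by 2.03, Gdf10 by 1.85, Ambp by 1.84, Rgs13 by 1.64 and Upk1a by 1.27 on the log2 scale, all toward a larger pyloric excess at E16.5, while Nkx2-5 changed by -1.20 and had the larger excess at E14.5. Among genes not called beyond both neighbours, Stmn2 changed by 1.70 and Shh by 1.49, from contrasts of -0.67 and -0.61 at E14.5, neither called. Their E16.5 contrasts were 1.03 and 0.88, both called. Pyloric means of Stmn2 and Shh were 10.87 and 11.78 at E14.5 and 11.02 and 11.89 at E16.5. Duodenal means were 11.59 and 12.79, then 9.44 and 9.64, and stomach means 11.50 and 11.99, then 10.54 and 12.38. Krtdap changed by -2.63, Krt13 by -2.16, Atp4a by -2.05 and Cyp2f2 by -1.76; in stomach their means at E16.5 were 10.75 ± 1.29, 12.76 ± 0.63, 12.50 ± 0.48 and 9.56 ± 0.05 (SD, n = 3), against 4.81 ± 0.07, 6.83 ± 0.29, 6.75 ± 0.48 and 5.91 ± 0.17 at E14.5. These calls rest on few pools, and their number over all genes moved widely with single arrays.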

How the results depend on the processing

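The contrast called 2601 genes as reported, 4017 with array weights, 643 at adjusted p under 0.01, and 869 to 3128 with 1 array left out. Genes beyond both neighbours numbered 429, and 653 with array weights, 103 at p under 0.01, 158 when the larger of the paired p-values was adjusted, 41 at 2-fold or more, 1365 by non-overlap alone, and 184 to 465 with 1 array left out. Genes above numbered 414, 75, 113, 39 and 752 under array weights, p under 0.01, larger p, 2-fold and non-overlap, 162 with arrays centred, 177 after quantile normalization, and 132 to 295 with 1 array left out. Genes below numbered 28, 45, 2 and 613 for p under 0.01, larger p, 2-fold and non-overlap, 357 centred, 309 after quantile normalization, 90 with E16.5 arrays alone, and 52 to 191 with 1 array left out. The change with age was called for 172 genes, for 429 with 18 separate arrays and for 1155 with array weights. It was called for 635 without both arrays of high immediate-early level (chosen after seeing the data) and for 26 with the replicate block. With 1 E16.5 array left out the range was 58 to 758, and its dependence on single E14.5 arrays was not tested. With the replicate block, 2341 genes were called by the contrast, 278 above and 166 below both. The place of the pylorus was 0.48, 0.41 over genes at least 2-fold apart, and 0.45 to 0.52 with 1 array left out.

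The mean of all probe sets turned the contrast of Laptm5 to -0.08 and its margin to -0.23, and the margin of Srr to 0.20; choosing probe sets on E16.5 arrays turned Col9a1 to -0.16. Other probe sets of a gene gave the opposite direction for Col9a1 (-0.16), Hbb-b2 (-0.63), Lgr4 (-0.17), Laptm5 (-0.01, -2.20 and -0.13), Kdm2a (0.08, 0.06, 0.34 and 0.07), Ptprj (0.01 and 0.07), Slc5a9 (0.08, 0.17 and 0.21), Srr (1.05, 0.36 and 0.62) and Trpm6 (0.17). The cause was not tested. Of 47 named genes beyond both neighbours, 15 (11 above, 4 below) kept that call under every alternative fit run: Nepn, Upk1a, Gdf10, Grem1, Nkx2-5, Pnliprp2, Samd5, Rgs13, Ambp, Alas2, Actc1, Pdia2, Oplah, Dusp14 and Fbln1. Rgs13 had 19 alternatives in place of 20, since the filter for genes under log2 6 in every E16.5 group left it out. The 3 arrays a group, dim probe sets and pooled tissue limit the precision of small margins.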
